A study of Mus musculus with 12 samples.

Results

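The 37 genes described here are markers of macrophages and of myeloid cells more broadly, taken by name from a fixed list out of the 24452 genes of the deposited RPKM table (reads scaled by gene length and library size). All 37 were found in it. They fall into 7 roles: 11 pan-myeloid and phagocyte genes, 4 Fc receptors and adaptors, 3 chains of complement C1q, 7 markers of resident-type macrophages, 4 markers of lipid-associated macrophages, 4 genes of monocytes and their recruitment, and 4 genes of antigen presentation.

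Total RNA of whole brown adipose tissue, the fat depot that makes heat, was sequenced from male C57BL/6J Bom mice 12 weeks of age, with 3 libraries in each of 4 groups. WT mice carried floxed ERRα and ERRγ alleles and no Cre. ERRαγAd-/- mice, called ERRKO below, carried the same floxed alleles and a Cre transgene under the adiponectin promoter, so that these 2 nuclear receptors are deleted in adipocytes while macrophages and other cells of the tissue keep the genes. Each genotype received PBS or CL316,243 (CL below), an agonist of the β3-adrenergic receptor that adipocytes carry, at 1 mg/kg once a day for 10 days at a housing temperature of 30 °C, with tissue collected 24 h following the final injection. The design asks what the agonist does in each genotype, what the deletion does under each treatment, and whether the agonist effect differs between genotypes. Nothing in the labels ties each library to its own animal. The p-values therefore measure how far these samples spread, which may be technical.

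Macrophages of adipose tissue take up dying cells, lipid and antibody-coated particles, and brown fat holds a resident population beside cells that arrive from the blood as monocytes. Their survival depends on the receptor Csf1r and its ligands Csf1 and Il34, and monocytes leave the blood by way of Ccr2, the receptor of Ccl2 and Ccl7. Resident-type cells are known for scavenger receptors and lectins such as Mrc1, Cd163, Lyve1 and Siglec1, and lipid-associated cells for Trem2, Gpnmb and Lgals3. In whole tissue, fewer cells of a type and less RNA per cell cannot be told apart.

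Values are scaled RPKM, the deposited RPKM after libraries were set to a common level of the typical gene, given for replicates 1, 2 and 3 in that order. Differences are log2 of scaled RPKM plus 0.5, with the standard error (SE) and p-values from limma adjusted by the Benjamini-Hochberg method over 12249 genes, and a gene is said to have risen or fallen where the adjusted p is under 0.05. The added 0.5 understates the change of low genes. On the deposited scale the typical gene lay 0.53 (log2) higher in ERRKO than in WT under PBS and 0.63 higher under CL, and it moved with CL by -0.26 in WT and -0.16 in ERRKO, so the counts over the 36 genes and over each role are given on both scales. Recovered reads per library ran from 8478310 to 9727167 in WT and from 12468001 to 13263567 in ERRKO. Esrra, the deleted gene for ERRα, was at 47.0, 41.7 and 42.4 in WT PBS, 83.2, 75.6 and 79.0 in WT CL, 8.72, 5.26 and 8.90 in ERRKO PBS and 8.39, 6.70 and 8.71 in ERRKO CL, with all ERRKO libraries below all WT libraries.

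Of the 37 genes, 36 passed the filter on low values. The exception was Timd4, a phosphatidylserine receptor of resident macrophages, at 0.618, 0.168 and 0.688 in WT PBS, 0.187, 0 and 0.0777 in WT CL, 0.514, 1.18 and 0.814 in ERRKO PBS and 0.363, 0.120 and 0.191 in ERRKO CL. Some libraries stood apart. WT PBS replicate 1 was the lowest of its group for 27 of the 36 genes and replicate 2 the highest for 22, and WT CL replicate 2 was the lowest of its group for 29. In ERRKO, PBS replicate 3 was the lowest of its group for 23 and CL replicate 1 the highest for 22. Skeletal muscle transcripts, 6 genes summed, reached 2137 scaled RPKM in ERRKO PBS replicate 3 and 1194 in ERRKO CL replicate 3, against 1.46 to 536 elsewhere. Summed brown adipocyte transcripts, 4 genes including Ucp1, were 2401 to 4145 in WT PBS, 5980 to 7749 in WT CL, 367 to 670 in ERRKO PBS and 1156 to 1471 in ERRKO CL.

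CL lowered most of these genes in WT tissue and fewer in ERRKO tissue. In WT, 27 of 36 fell and none rose, where 12.6% of all genes tested fell and 17.9% rose. In ERRKO, 11 of 36 fell and none rose, where 3.62% of all genes fell and 6.68% rose. For rises, the count was also 0 at an unadjusted p under 0.05, by edgeR and by DESeq2, in both genotypes. The median difference over the 36 genes was -0.95 in WT and -0.55 in ERRKO, while the median over all genes is set to no change by the scaling. The test of the difference between these 2 effects passed for 1 of the 36, Ly6c2, where it passed for 3.89% of all genes. For the other 35 genes an effect past the threshold in WT and not in ERRKO is not shown to differ between genotypes. On the deposited scale 32 of 36 fell in WT (38.1% of all genes) and 23 in ERRKO (13.7%).

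Between genotypes 4 of 36 genes differed under PBS and 12 under CL. Under PBS, Siglec1, Retnla and Ly6c2 were higher in ERRKO and Trem2 was lower, which is 3 of 36 higher (15.8% of all genes) and 1 of 36 lower (18.4%), both below the share among all genes. Under CL, 10 of 36 were higher in ERRKO (19.8% of all genes) and 2 lower (21.6%). On the deposited scale 19 of 36 were higher under PBS, where 66.3% of all genes were, and 24 of 36 under CL, where 70.5% were. On that scale 0 were lower in either (6.22% and 6.62% of all genes). The shares of all genes given here and for CL above also stand beside the counts of each role and list below. The 2 agonist effects share no libraries, nor do the 2 genotype differences, while each agonist effect shares a group with each genotype difference. Groups of 3 libraries without overlap were common over all genes. With CL 18.9% lay wholly lower in WT and 13% in ERRKO, and 24% and 18.8% wholly higher. In ERRKO against WT 22.1% lay wholly higher under PBS and 26.8% under CL, and 22.8% and 27.8% wholly lower.

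**Figure D1:**
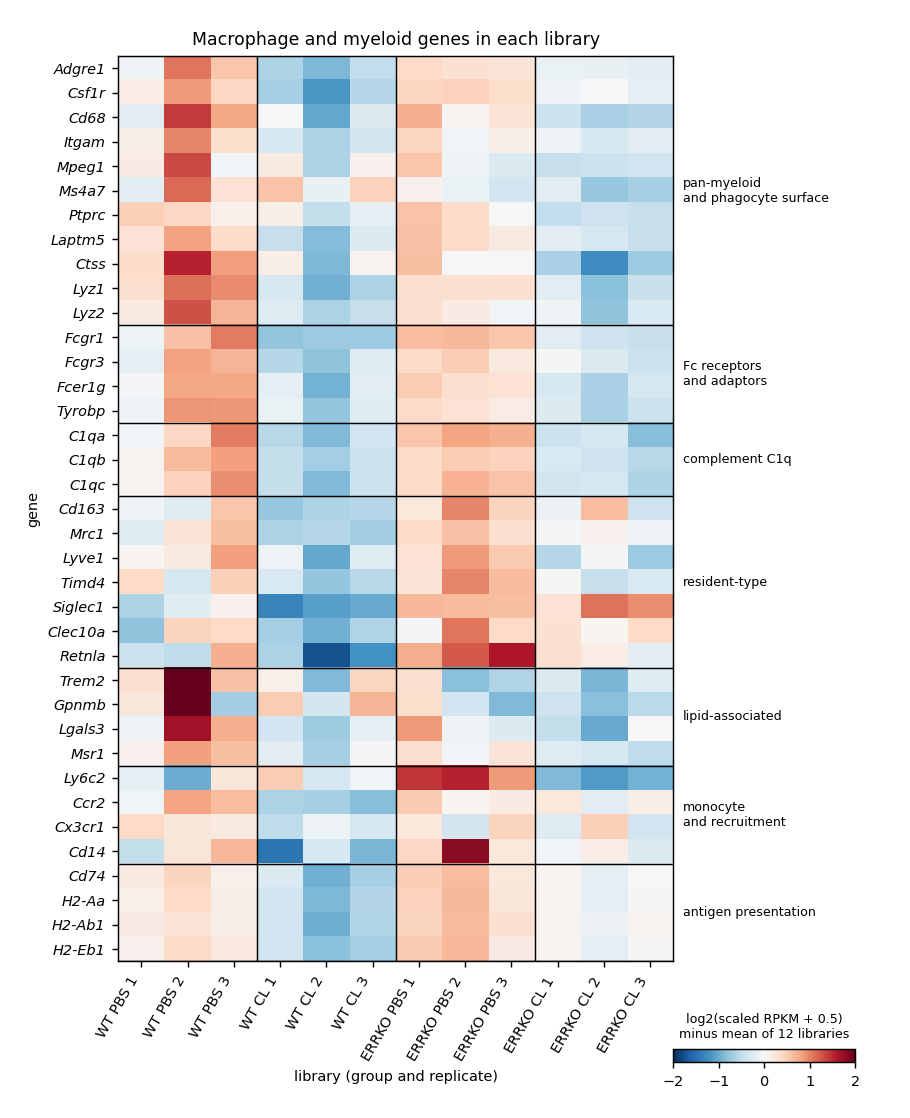
Heat map of the 37 genes (rows, in 7 roles) in the 12 libraries (columns), as log2(scaled RPKM + 0.5) minus the mean of the 12 libraries, from blue (2 or more below) to red (2 or more above). Most rows are bluer in WT CL than in WT PBS, where replicate 2 is the highest for 22 genes, and the Ly6c2 row is red in ERRKO PBS and blue in ERRKO CL.

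**Figure D2:**
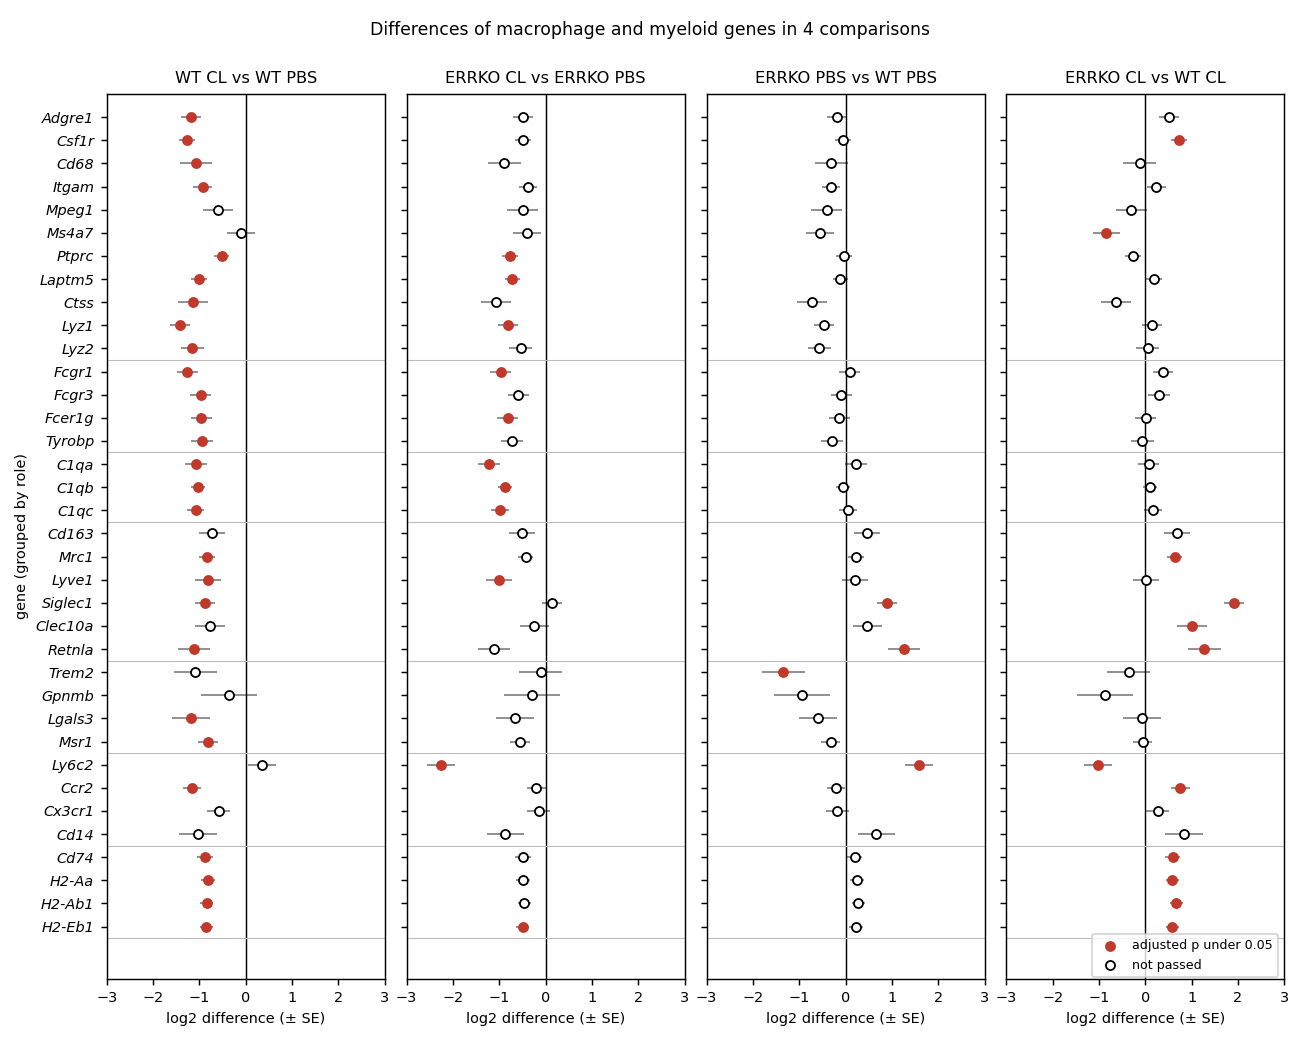
Log2 differences (points) with their SE (bars) for the 36 genes tested in 4 comparisons, filled red where the adjusted p was under 0.05. In WT 27 points are red and all 27 lie left of 0, and in ERRKO 11 are.

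Leaving out 1 library at a time changed these counts. The WT count of 27 moved between 20 (without WT PBS replicate 2 or WT CL replicate 2) and 28. The ERRKO count of 11 fell to 4 without ERRKO PBS replicate 1 or ERRKO CL replicate 3, to 6 without ERRKO PBS replicate 2 or ERRKO CL replicate 2 and to 7 without ERRKO CL replicate 1, and it was 2 without both ERRKO libraries high in muscle transcripts. The PBS genotype count of 4 became 9 (2 higher and 7 lower) without WT PBS replicate 1, and 2 without WT PBS replicate 2 or ERRKO PBS replicate 3. The interaction count of 1 became 3 without WT PBS replicate 1 and 2 without ERRKO CL replicate 1. Of single calls, 19 of the 27 in WT held in each of the 12 fits with 1 library left out, as did 4 of 11 in ERRKO, 2 of 4 between genotypes under PBS and 7 of 12 under CL. Transcripts of red blood cells moved beside the WT result. Of 5 erythroid genes, 5 fell with CL in WT, from a summed level of 864 to 944 down to 197 to 627. In ERRKO the sums were 643 to 870 and 421 to 575, with 0 of 5 past the threshold (1 at an unadjusted p under 0.05, 0 by edgeR or DESeq2). The part of blood in the result was not tested.

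The pan-myeloid and phagocyte genes fell with CL in WT in 9 of 11 cases, with a median difference of -1.08, and in ERRKO in 3 of 11, with a median of -0.54. Adgre1 (plus strand of chromosome 17, 57358691 to 57483527) encodes F4/80, the surface receptor used to mark mouse macrophages. It was at 5.24, 12.3 and 8.48 in WT PBS, 3.47, 2.80 and 3.85 in WT CL, 7.57, 7.06 and 6.79 in ERRKO PBS and 5.08, 5.03 and 4.77 in ERRKO CL. Every WT CL library lay below every WT PBS library and every ERRKO CL library below every ERRKO PBS library. The fall passed in WT (-1.18 ± 0.22, adjusted p = 0.00202) and not in ERRKO (-0.48 ± 0.22, adjusted p = 0.194).

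Csf1r, the receptor for colony-stimulating factor 1 on which macrophage survival depends, was at 8.62, 14.3 and 10.4 in WT PBS, 4.71, 3.18 and 5.04 in WT CL, 10.6, 10.8 and 10.0 in ERRKO PBS and 7.35, 7.70 and 6.89 in ERRKO CL. WT CL lay below all 9 other libraries. The fall in WT was -1.27 ± 0.18 (adjusted p = 0.000317), the difference in ERRKO -0.49 ± 0.18 (adjusted p = 0.102), and under CL Csf1r was higher in ERRKO than in WT (0.72 ± 0.18, adjusted p = 0.00586). The test of the difference between the agonist effects on Csf1r did not pass by limma (0.78 ± 0.25, adjusted p = 0.110), and passed by DESeq2 (adjusted p = 0.0360). Of the exon bases of Csf1r 15.1% overlap the gene Hmgxb3.

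Lysozymes, which break bacterial cell walls, had the largest fall of the 11 in WT at Lyz1 (-1.43 ± 0.21, adjusted p = 0.000525), from 10.2, 17.8 and 15.9 to 6.32, 3.85 and 5.06. Lyz1 fell in ERRKO as well (-0.81 ± 0.21, adjusted p = 0.0337), from 10.2, 10.2 and 10.0 to 6.87, 4.33 and 5.77. The neighbouring Lyz2 was far more abundant, at 144, 307 and 204 in WT PBS, 106, 81.8 and 92.3 in WT CL, 159, 143 and 123 in ERRKO PBS and 121, 72.4 and 102 in ERRKO CL. Lyz2 fell in WT (-1.16 ± 0.25, adjusted p = 0.00450) and did not pass in ERRKO (-0.54 ± 0.25, adjusted p = 0.198). The paralogs share 16.1% of the 50-base windows of Lyz1 and 15.4% of those of Lyz2, so reads may be split between them. The ERRKO call of Lyz1 was lost without any ERRKO library except ERRKO CL replicate 1 (adjusted p from 0.0731 to 0.124).

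Laptm5, a lysosomal membrane protein of blood cells, fell in both genotypes (-1.02 ± 0.17, adjusted p = 0.00112 in WT and -0.72 ± 0.17, adjusted p = 0.0229 in ERRKO). It stood at 12.7, 18.5 and 13.5 in WT PBS, 7.41, 5.45 and 8.49 in WT CL, 15.7, 13.6 and 11.7 in ERRKO PBS and 8.77, 8.12 and 7.39 in ERRKO CL, with no overlap between treatments in either genotype. Ptprc, which encodes the leukocyte antigen CD45, fell by less in WT (-0.52 ± 0.17, adjusted p = 0.0367) and in ERRKO was at -0.76 ± 0.17 (adjusted p = 0.0170). Its WT groups overlapped at 7.25, 6.93 and 5.44 under PBS and 5.51, 3.47 and 4.32 under CL, and its ERRKO groups did not, at 7.71, 6.64 and 5.03 against 3.44, 3.68 and 3.52. The ERRKO call of Laptm5 was lost without ERRKO PBS replicate 1 (adjusted p = 0.0953), ERRKO PBS replicate 2 (0.0529), ERRKO CL replicate 2 (0.0674) or ERRKO CL replicate 3 (0.0780). The Ptprc call was lost in WT without WT PBS replicate 1 (adjusted p = 0.111), WT PBS replicate 2 (0.108), WT CL replicate 2 (0.148) or WT CL replicate 3 (0.0881). In ERRKO it was lost without ERRKO PBS replicate 1 (adjusted p = 0.0750), ERRKO CL replicate 1 (0.0535) or ERRKO CL replicate 3 (0.0507).

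Ctss, a lysosomal protease that trims the class II invariant chain, was at 34.9, 79.5 and 48.7 in WT PBS, 29.5, 14.3 and 28.5 in WT CL, 41.1, 27.0 and 26.8 in ERRKO PBS and 17.0, 11.2 and 16.2 in ERRKO CL. It fell in WT (-1.15 ± 0.32, adjusted p = 0.0193) and in ERRKO was -1.07 ± 0.32 (adjusted p = 0.0590), with separate groups in both. WT PBS replicate 2 was the highest library, and the WT call was lost without WT PBS replicate 2 (adjusted p = 0.0820) or WT CL replicate 2 (0.0800). Cd68, a glycoprotein of late endosomes, fell in WT (-1.08 ± 0.35, adjusted p = 0.0367) although WT CL replicate 1 at 9.02 lay above WT PBS replicate 1 at 7.65. The Cd68 call was lost without WT PBS replicate 2 (adjusted p = 0.147), WT PBS replicate 3 (0.0824), WT CL replicate 2 (0.146) or WT CL replicate 3 (0.0637). Itgam, the integrin chain CD11b, fell in WT (-0.93 ± 0.20, adjusted p = 0.00484), and 68.7% of its exon bases overlap the annotated gene Gm49368, so its value is uncertain.

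A pair of the 11 did not pass in WT. Mpeg1, the pore-forming perforin 2 of phagocytes, was at 11.6, 26.5 and 9.88 in WT PBS, 11.7, 6.51 and 10.9 in WT CL, 15.4, 9.78 and 8.40 in ERRKO PBS and 7.36, 7.53 and 7.73 in ERRKO CL. Ms4a7, a membrane protein of the MS4A family, was at 2.27, 6.49 and 3.40 in WT PBS, 4.27, 2.38 and 3.89 in WT CL, 2.89, 2.41 and 1.96 in ERRKO PBS and 2.24, 1.40 and 1.51 in ERRKO CL. WT CL lay within the range of WT PBS (-0.11 ± 0.30, adjusted p = 0.822), and under CL Ms4a7 was lower in ERRKO than in WT (-0.84 ± 0.30, adjusted p = 0.0405), against the direction of most of the 36 genes in that comparison. On the deposited scale it did not pass (-0.25, adjusted p = 0.456). It was also lost without WT CL replicate 1 (adjusted p = 0.134), WT CL replicate 3 (0.111), ERRKO PBS replicate 2 (0.0505), ERRKO CL replicate 2 (0.122) or ERRKO CL replicate 3 (0.107). Under PBS 0 of the 11 genes differed between genotypes by limma or edgeR, with Ctss, Lyz1 and Lyz2 lower in ERRKO at an unadjusted p under 0.05, of which DESeq2 called Ctss and Lyz2. The median difference of -0.32 turned to 0.18 on the deposited scale. On that scale 10 of the 11 fell in WT and 7 in ERRKO, and 3 were higher in ERRKO under PBS and 6 under CL.

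**Figure D3:**
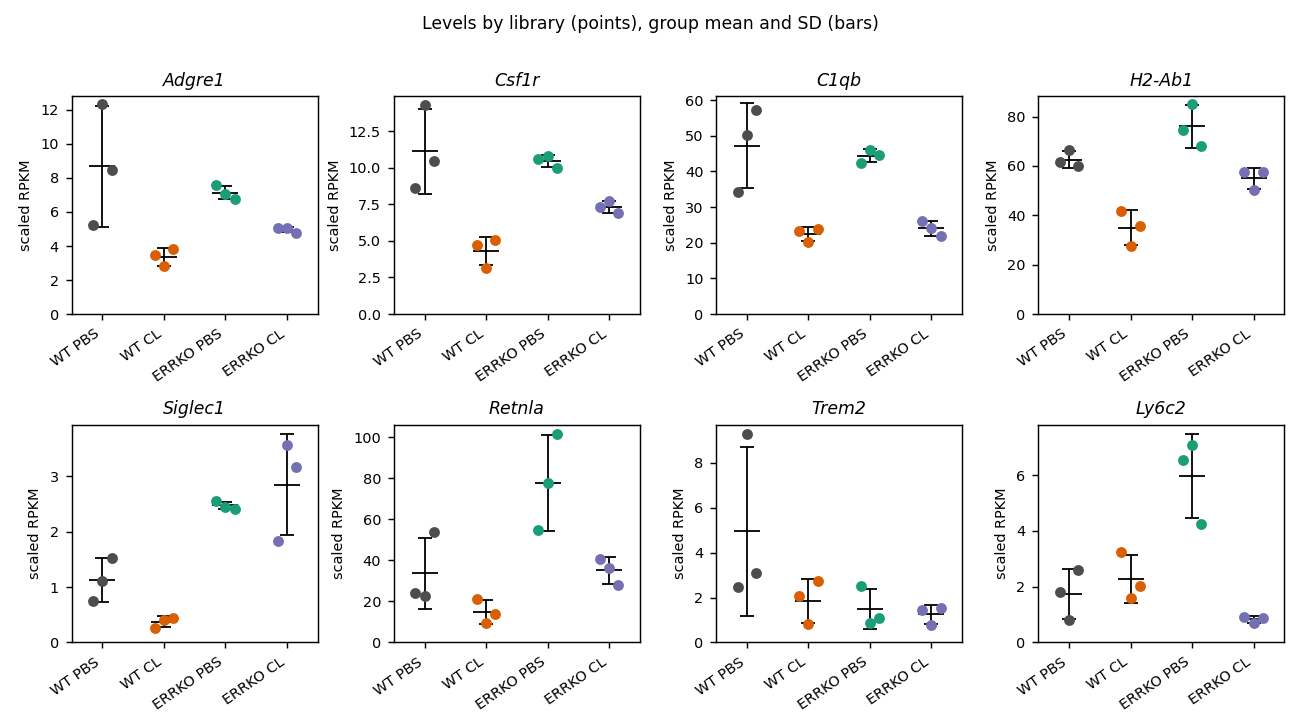
Scaled RPKM of 8 genes in each library (points), with the group mean and SD (bars, n = 3), by group. Adgre1, Csf1r, C1qb and H2-Ab1 have all CL points below the PBS points in both genotypes, and in ERRKO only C1qb passed by limma. Siglec1 is high in all ERRKO libraries, Trem2 rests on 1 WT PBS library at 9.27, and Ly6c2 is highest in ERRKO PBS.

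Fc receptors bind antibody-coated particles, and their adaptors carry the activating signal. All 4 fell with CL in WT, where no WT CL library reached the lowest WT PBS library, as for 18.9% of all genes. In ERRKO 2 of 4 fell, and the median difference was -0.97 in WT and -0.77 in ERRKO. With RPKM as deposited, 4 of 4 fell in each genotype, and 1 was higher in ERRKO under PBS and 4 under CL. Fcgr1, the high-affinity receptor for immunoglobulin G (minus strand of chromosome 3, 96282909 to 96293969), was at 0.934, 1.78 and 2.64 in WT PBS, 0.378, 0.418 and 0.424 in WT CL, 1.83, 1.88 and 1.73 in ERRKO PBS and 0.800, 0.645 and 0.600 in ERRKO CL. These are low levels that rest on 12 to 106 reads per library. Fcgr1 fell in WT (-1.26 ± 0.22, adjusted p = 0.00138) and in ERRKO (-0.97 ± 0.22, adjusted p = 0.0180), a call lost without ERRKO PBS replicate 1 (adjusted p = 0.0641), ERRKO CL replicate 2 (0.0600) or ERRKO CL replicate 3 (0.0607).

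Fcer1g, the signalling chain shared by Fc receptors, was at 12.7, 22.4 and 22.4 in WT PBS, 11.3, 6.46 and 11.0 in WT CL, 18.4, 16.3 and 15.9 in ERRKO PBS and 10.2, 8.01 and 9.92 in ERRKO CL. It changed by -0.96 ± 0.23 (adjusted p = 0.00872) in WT and -0.82 ± 0.23 (adjusted p = 0.0438) in ERRKO. Tyrobp, the adaptor DAP12 through which Trem2 signals, fell in WT (-0.95 ± 0.24, adjusted p = 0.0113) and did not pass in ERRKO (-0.73 ± 0.24, adjusted p = 0.0781). Fcgr3, a low-affinity receptor, fell in WT (-0.98 ± 0.23, adjusted p = 0.00741) and was -0.59 ± 0.23 (adjusted p = 0.128) in ERRKO, and 9.58% of its 50-base windows also occur in other genes, Fcgr2b among them. The Fcer1g call in ERRKO was lost without WT CL replicate 3 and without any ERRKO library (adjusted p from 0.0542 to 0.145). The Tyrobp call in WT was lost without WT PBS replicate 2 (adjusted p = 0.0514) or WT CL replicate 2 (0.0502).

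C1q starts the classical complement pathway, and tissue macrophages are its main source. Its 3 chains fell in both genotypes, 3 of 3 in each, with medians of -1.07 in WT and -0.98 in ERRKO. C1qa (minus strand of chromosome 4, 136895917 to 136898803) was at 27.5, 38.6 and 58.9 in WT PBS, 19.4, 15.3 and 21.9 in WT CL, 42.6, 50.2 and 47.2 in ERRKO PBS and 21.3, 22.6 and 15.8 in ERRKO CL. C1qb (minus strand of chromosome 4, 136880129 to 136886187) was at 34.1, 50.2 and 57.3 in WT PBS, 23.2, 20.1 and 23.9 in WT CL, 42.4, 46.0 and 44.6 in ERRKO PBS and 26.0, 24.1 and 22.0 in ERRKO CL. C1qc (minus strand of chromosome 4, 136889804 to 136893065) was at 28.6, 37.7 and 52.4 in WT PBS, 19.5, 14.5 and 20.0 in WT CL, 35.3, 44.2 and 40.7 in ERRKO PBS and 20.97, 21.5 and 17.6 in ERRKO CL. For each chain the CL libraries of a genotype lay below its PBS libraries, as for 18.9% of all genes in WT and 13% in ERRKO. The 2 CL groups overlapped each other for each chain.

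C1qa changed by -1.07 ± 0.23 (adjusted p = 0.00492) in WT and -1.22 ± 0.23 (adjusted p = 0.00769) in ERRKO. C1qb changed by -1.03 ± 0.16 (adjusted p = 0.000555) and -0.88 ± 0.16 (adjusted p = 0.00576), and C1qc by -1.08 ± 0.19 (adjusted p = 0.00153) and -0.98 ± 0.19 (adjusted p = 0.00914). Between genotypes 0 of 3 passed under either treatment, also at an unadjusted p under 0.05, by edgeR and by DESeq2, with differences from -0.06 to 0.23. On the deposited scale all 3 were higher in ERRKO under both treatments, where 66.3% (PBS) and 70.5% (CL) of all genes were. All 3 fell in both genotypes on that scale (38.1% of all genes in WT and 13.7% in ERRKO). All 6 agonist calls held when any 1 library was left out, and the 3 in ERRKO were lost without both libraries high in muscle transcripts (adjusted p = 0.0702, 0.0575 and 0.0798 for C1qa, C1qb and C1qc).

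The resident-type genes had the highest median difference between genotypes of the 7 roles, under PBS and under CL. Of the 6 tested, 2 were higher in ERRKO under PBS and 4 under CL, with medians of 0.47 and 0.84. Lyve1, 1 of the 6, was near 0 under CL (0.02 ± 0.28, adjusted p = 0.965) and did not pass under PBS (0.21 ± 0.28, adjusted p = 0.601). The calls were of Siglec1 and Retnla under both treatments and of Mrc1 and Clec10a under CL alone. With CL, 4 of 6 fell in WT (median -0.83) and 1 of 6 in ERRKO (median -0.47). Without the rescaling, 6 of 6 were higher in ERRKO under PBS and 5 under CL, where 66.3% and 70.5% of all genes were. On that scale 6 fell in WT and 3 in ERRKO (38.1% and 13.7% of all genes).

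Siglec1 (minus strand of chromosome 2, 131069220 to 131086765), the sialic acid receptor CD169, was at 0.747, 1.11 and 1.53 in WT PBS, 0.268, 0.404 and 0.450 in WT CL, 2.55, 2.46 and 2.42 in ERRKO PBS and 1.83, 3.56 and 3.16 in ERRKO CL. All 6 ERRKO libraries, from 1.83 to 3.56, lay above all 6 WT libraries, from 0.268 to 1.53. It was higher in ERRKO under PBS (0.90 ± 0.21, adjusted p = 0.00671) and under CL (1.91 ± 0.21, adjusted p = 2.11e-05). CL lowered it in WT (-0.88 ± 0.21, adjusted p = 0.00924), while in ERRKO the groups overlapped (0.13 ± 0.21, adjusted p = 0.766). The difference between the agonist effects was 1.01 ± 0.30 (adjusted p = 0.0906), which missed the threshold and passed by edgeR (adjusted p = 0.0408), by DESeq2 (0.00130), in the second deposited table (0.0458) and without ERRKO CL replicate 1 (0.0302).

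Retnla (plus strand of chromosome 16, 48842551 to 48844461) encodes resistin-like alpha, a secreted protein made by alternatively activated macrophages. It was at 24.3, 22.8 and 53.7 in WT PBS, 20.99, 9.47 and 13.8 in WT CL, 54.6, 77.5 and 101 in ERRKO PBS and 40.8, 36.5 and 27.9 in ERRKO CL. Every ERRKO PBS library lay above every WT PBS library and every ERRKO CL library above every WT CL library. The difference was 1.27 ± 0.35 (adjusted p = 0.0142) under PBS and 1.27 ± 0.35 (adjusted p = 0.0114) under CL. CL lowered Retnla in WT (-1.12 ± 0.35, adjusted p = 0.0300), and in ERRKO the difference was -1.11 ± 0.35 (adjusted p = 0.0648), which edgeR and DESeq2 called. The PBS difference was lost without WT PBS replicate 1 (adjusted p = 0.0536), WT PBS replicate 2 (0.0590) or ERRKO PBS replicate 3 (0.0571). The CL difference was lost without WT CL replicate 2 (adjusted p = 0.0523). The WT fall was lost without WT PBS replicate 3 (adjusted p = 0.0977), WT CL replicate 2 (0.121) or WT CL replicate 3 (0.0728).

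Mrc1, the mannose receptor CD206 (plus strand of chromosome 2, 14229392 to 14332057), was at 6.34, 9.47 and 12.0 in WT PBS, 4.81, 5.01 and 4.59 in WT CL, 10.2, 11.8 and 9.81 in ERRKO PBS and 7.57, 8.22 and 7.35 in ERRKO CL. It fell in WT (-0.84 ± 0.17, adjusted p = 0.00331), and under CL the ERRKO libraries lay above the WT libraries (0.63 ± 0.17, adjusted p = 0.0105). Clec10a, a lectin for galactose and N-acetylgalactosamine, was at 2.92, 7.67 and 7.40 in WT PBS, 3.23, 2.57 and 3.42 in WT CL, 5.41, 12.1 and 7.41 in ERRKO PBS and 6.86, 5.66 and 7.38 in ERRKO CL. Clec10a was higher in ERRKO under CL (1.00 ± 0.32, adjusted p = 0.0260). The call was lost without WT CL replicate 1 (adjusted p = 0.0543), WT CL replicate 2 (0.0829), ERRKO CL replicate 1 (0.0633) or ERRKO CL replicate 3 (0.0767). Of its 50-base windows 9.02% also occur in other genes, Mgl2 among them.

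Cd163, the receptor for haemoglobin bound to haptoglobin, did not pass in any comparison by limma, with 0.68 ± 0.28 (adjusted p = 0.0697) for ERRKO against WT under CL, which edgeR and DESeq2 called, and -0.73 ± 0.28 (adjusted p = 0.0659) for CL in WT, which DESeq2 called. Both passed on the deposited scale, as did the genotype difference under PBS. Lyve1, a hyaluronan receptor of perivascular macrophages and lymphatic vessels, fell in WT (-0.81 ± 0.28, adjusted p = 0.0471) and in ERRKO (-1.001 ± 0.28, adjusted p = 0.0438), from levels of 1.16, 1.32 and 2.35 to 1.00, 0.288 and 0.843 and from 1.48, 2.40 and 1.82 to 0.587, 1.06 and 0.477. These levels rest on 9 to 129 reads per library. Both Lyve1 calls were lost in several fits with 1 library left out. In WT this was without WT PBS replicates 2 or 3, WT CL replicates 2 or 3, ERRKO PBS replicates 1 or 3 or ERRKO CL replicates 1 or 3 (adjusted p from 0.0519 to 0.185). In ERRKO it was without WT PBS replicate 2, WT CL replicate 3, any ERRKO PBS replicate or ERRKO CL replicates 1 or 3 (0.0544 to 0.137). The WT call was also lost by edgeR (adjusted p = 0.0661), which called Timd4 in its place. Other genes of lymphatic endothelium, 4 summed, were at 5.88 to 6.89 in WT PBS, 2.45 to 6.60 in WT CL, 4.03 to 5.58 in ERRKO PBS and 3.72 to 4.13 in ERRKO CL, and their part in the Lyve1 values was not tested.

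Of 13 further resident macrophage genes tested, 7 fell with CL in WT (median -0.62, 12.6% of all genes) and 3 in ERRKO (median -0.85, 3.62%). ERRKO was higher for 2 under PBS, a share like that of all genes (15.8%). Under CL it was higher for 5 (19.8% of all genes) and lower for 1 (21.6%). Without the rescaling, 10 fell in WT (38.1% of all genes) and 7 in ERRKO (13.7%). On that scale ERRKO was higher for 10 under PBS (66.3% of all genes) and for 10 under CL (70.5%), with 1 lower. Mgl2, the lectin gene beside Clec10a, was at 5.10, 5.85 and 11.6 in WT PBS, 2.92, 3.05 and 1.43 in WT CL, 10.9, 14.8 and 13.3 in ERRKO PBS and 5.77, 7.62 and 6.39 in ERRKO CL. It fell in WT (-1.40 ± 0.28, adjusted p = 0.00336) and was higher in ERRKO under PBS (0.83 ± 0.28, adjusted p = 0.0405) and under CL (1.30 ± 0.28, adjusted p = 0.00303). Maf, a transcription factor of resident macrophages, was higher in ERRKO under CL (0.84 ± 0.21, adjusted p = 0.00660), and the chemokine Ccl8 was lower (-1.70 ± 0.43, adjusted p = 0.00728). Gas6, which bridges dying cells to their receptors on phagocytes, fell in both genotypes (-1.33 ± 0.13, adjusted p = 3.74e-05 in WT and -1.09 ± 0.13, adjusted p = 0.000710 in ERRKO). So did Pf4 (-1.45 ± 0.31, adjusted p = 0.00425 and -1.16 ± 0.31, adjusted p = 0.0339), which platelets carry as well.

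For all 4 lipid-associated genes WT PBS replicate 2 was the highest of all 12 libraries. That library was also the highest of all 12 for genes of other roles, among them Adgre1, Csf1r, Cd68, Ctss and Lyz2. Trem2 (plus strand of chromosome 17, 48346401 to 48354147), a lipid-sensing receptor, was at 2.46, 9.27 and 3.11 in WT PBS, 2.06, 0.799 and 2.73 in WT CL, 2.50, 0.847 and 1.08 in ERRKO PBS and 1.46, 0.774 and 1.54 in ERRKO CL. Gpnmb, a glycoprotein of lysosome-rich macrophages, was at 3.26, 16.0 and 1.48 in WT PBS, 4.03, 1.97 and 4.63 in WT CL, 3.57, 1.94 and 1.24 in ERRKO PBS and 1.91, 1.29 and 1.71 in ERRKO CL. Lgals3, which encodes galectin 3, was at 17.1, 59.9 and 30.5 in WT PBS, 14.1, 11.1 and 16.0 in WT CL, 33.7, 17.4 and 15.1 in ERRKO PBS and 13.1, 8.95 and 18.2 in ERRKO CL. The other WT PBS libraries of Trem2 and Gpnmb overlapped the WT CL range, and those of Lgals3 lay above it.

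Trem2 was lower in ERRKO under PBS (-1.34 ± 0.46, adjusted p = 0.0408), though ERRKO PBS replicate 1 at 2.50 lay above WT PBS replicate 1 at 2.46. The call was lost without WT PBS replicate 2 (-0.82, adjusted p = 0.157) and with RPKM as deposited (-0.88, adjusted p = 0.104). It was lost as well without WT CL replicate 1, ERRKO PBS replicates 2 or 3 or ERRKO CL replicates 1 or 3 (0.0503 to 0.125). With CL in WT, Lgals3 fell (-1.19 ± 0.41, adjusted p = 0.0459) and Trem2 did not pass (-1.09 ± 0.46, adjusted p = 0.0945). The Lgals3 call was lost without WT PBS replicates 2 or 3, any WT CL replicate, ERRKO PBS replicate 2 or ERRKO CL replicate 1 (adjusted p from 0.0523 to 0.181). Msr1, a scavenger receptor for modified lipoproteins, fell in WT (-0.81 ± 0.21, adjusted p = 0.0132) with separate groups, from 0.908, 1.83 and 1.50 to 0.632, 0.333 and 0.782. That call was lost without WT PBS replicate 2 (adjusted p = 0.0586) or WT CL replicate 2 (0.0561). In ERRKO 0 of 4 passed with CL by limma or edgeR, with Msr1 at an unadjusted p under 0.05 (-0.55) and called by DESeq2. Of the 4, 3 fell in WT and 1, Msr1, in ERRKO on the deposited scale, where the lipid-associated genes gave no call between genotypes.

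Among the monocyte genes, Ly6c2 was the 1 gene of the 36 tested whose agonist effects differed between genotypes by limma. Ly6c2 (minus strand of chromosome 15, 75108158 to 75111970) encodes the Ly6C antigen that marks inflammatory monocytes in mouse blood and that some T cells carry as well. It was at 1.82, 0.814 and 2.60 in WT PBS, 3.23, 1.58 and 2.02 in WT CL, 6.55, 7.10 and 4.26 in ERRKO PBS and 0.918, 0.692 and 0.861 in ERRKO CL. All ERRKO PBS libraries lay above all others, and ERRKO CL lay below all WT libraries but WT PBS replicate 2 at 0.814. On the scale of RPKM plus 0.5, Ly6c2 was 3.00-fold higher in ERRKO under PBS (1.58 ± 0.30, adjusted p = 0.00146). CL lowered it in ERRKO to 0.208 of its level (-2.26 ± 0.30, adjusted p = 0.00103), while in WT it did not pass (0.35 ± 0.30, adjusted p = 0.409). The agonist effects differed between genotypes (-2.61 ± 0.42, adjusted p = 0.00668), by limma, edgeR and DESeq2 and in each fit with 1 library left out.

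Under CL, Ly6c2 was lower in ERRKO than in WT (-1.03 ± 0.30, adjusted p = 0.0155), and this did not pass on the deposited scale (-0.50, adjusted p = 0.122). It was also lost without WT CL replicate 1 (adjusted p = 0.0689) or ERRKO CL replicate 2 (0.0521). The Ly6c2 values rest on 9 to 117 reads per library, and 14.4% of its 50-base windows also occur in other genes, chiefly in Ly6c1, its near copy that endothelial cells express. Ly6c1, chosen for comparison after the values of Ly6c2 were seen, was at 57.2, 62.2 and 55.1 in WT PBS, 44.3, 51.2 and 56.7 in WT CL, 46.6, 43.5 and 48.5 in ERRKO PBS and 42.0, 38.8 and 42.3 in ERRKO CL. Its differences were -0.33 and -0.30 between genotypes, under PBS and CL (adjusted p = 0.0209 and 0.0283), and turned to 0.26 and 0.41 on the deposited scale (adjusted p = 0.0426 and 0.00344), so no direction is given for it. With CL they were -0.20 in WT and -0.17 in ERRKO, neither of which passed.

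The 250 bases before the RefSeq start of each Ly6c gene (GRCm38.p6, minus strand) are printed here side by side. The longest stretch identical in both, 20 bases, is in capitals. How alike the sequences are as a whole was not measured. Ly6c2 is at chr15:75111972-75112221 and Ly6c1 at chr15:75048838-75049087.
Ly6c2: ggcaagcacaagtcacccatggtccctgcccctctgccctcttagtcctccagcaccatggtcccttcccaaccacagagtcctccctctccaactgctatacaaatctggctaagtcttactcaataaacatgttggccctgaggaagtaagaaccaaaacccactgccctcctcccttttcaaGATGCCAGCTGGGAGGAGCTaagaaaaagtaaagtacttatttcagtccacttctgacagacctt
Ly6c1: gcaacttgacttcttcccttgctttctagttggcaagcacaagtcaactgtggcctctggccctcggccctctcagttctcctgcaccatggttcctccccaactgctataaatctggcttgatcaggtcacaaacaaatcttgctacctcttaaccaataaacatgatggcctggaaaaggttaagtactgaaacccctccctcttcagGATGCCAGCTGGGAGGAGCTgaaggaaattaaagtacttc

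Some T cell transcripts moved in the same comparisons as Ly6c2. Of 4 T cell genes tested, 3 were higher in ERRKO under PBS (Cd3e 0.92, Cd3g 1.10, Lck 0.67), of which edgeR called Cd3e and DESeq2 Cd3e and Lck, and 2 fell with CL in ERRKO (Cd3g -1.54, Lck -0.997). The 6 T cell genes listed summed to 2.47 to 5.32 in WT PBS, 1.86 to 4.40 in WT CL, 4.84 to 9.23 in ERRKO PBS and 1.55 to 3.20 in ERRKO CL. Neutrophil transcripts, 4 genes summed, were at 10.1 to 19.8, 4.34 to 13.6, 5.49 to 9.33 and 20.7 to 22.9 in the same order, and those of eosinophils at 0.436 to 0.843, 0.459 to 1.51, 0.885 to 1.36 and 0.230 to 0.634, with Epx at 0 in all libraries. The part of these cells in the Ly6c2 values was not tested.

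Ccr2 (plus strand of chromosome 9, 124101950 to 124113557), the chemokine receptor of monocytes, was at 6.17, 11.5 and 10.1 in WT PBS, 3.97, 3.87 and 3.37 in WT CL, 9.45, 6.61 and 7.26 in ERRKO PBS and 7.53, 5.47 and 7.05 in ERRKO CL. It fell in WT (-1.16 ± 0.20, adjusted p = 0.00136), with all WT CL libraries below all others, and did not pass in ERRKO (-0.20 ± 0.20, adjusted p = 0.599). Under CL it was higher in ERRKO than in WT (0.75 ± 0.20, adjusted p = 0.0105). The difference between its agonist effects was 0.96 ± 0.29, which missed the threshold by limma (adjusted p = 0.0885) and passed by DESeq2 (adjusted p = 0.0165) and without WT PBS replicate 1 (0.0167). Cx3cr1, the fractalkine receptor, was low at 0.326 to 1.14 over the 12 libraries and did not pass in any comparison by limma, edgeR or DESeq2. Cd14, the co-receptor for bacterial lipopolysaccharide, was at 1.72 to 20.5, with its highest value in ERRKO PBS replicate 2. It did not pass by limma or edgeR, while DESeq2 called its fall in WT. With RPKM as deposited, 2 of these 4 genes fell in WT (Ccr2 and Cd14) and 1 in ERRKO (Ly6c2), and 2 were higher in ERRKO under PBS (Ly6c2 and Cd14) and 2 under CL (Ccr2 and Cd14).

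Csf1, Ccl2 and Ccl7, ligands of these receptors, fell with CL in both genotypes. Of 6 growth factor and chemokine genes tested, 5 fell in WT (median -1.21) and 3 in ERRKO (median -1.03), and on the deposited scale 6 and 5. Csf1 was at 5.74, 5.18 and 5.82 in WT PBS, 2.86, 2.43 and 2.67 in WT CL, 6.32, 7.83 and 7.12 in ERRKO PBS and 3.84, 3.55 and 3.14 in ERRKO CL. The CL libraries lay far below the PBS libraries in each genotype, by -0.95 ± 0.11 (adjusted p = 7.78e-05) in WT and -0.92 ± 0.11 (adjusted p = 0.000503) in ERRKO. Csf1 was also a little higher in ERRKO than in WT, by 0.32 ± 0.11 (adjusted p = 0.0374) under PBS and 0.35 ± 0.11 (adjusted p = 0.0209) under CL.

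Ccl2 was at 3.25, 2.63 and 5.48 in WT PBS, 0.404, 1.24 and 1.05 in WT CL, 4.33, 3.19 and 4.23 in ERRKO PBS and 1.29, 1.68 and 0.386 in ERRKO CL. Ccl7 was at 1.18, 2.57 and 5.44 in WT PBS, 0.612, 0.521 and 0.529 in WT CL, 4.14, 3.46 and 3.88 in ERRKO PBS and 0.247, 1.11 and 0.454 in ERRKO CL. CL libraries lay below PBS libraries for both chemokines in each genotype. Ccl2 changed by -1.62 ± 0.35 (adjusted p = 0.00450) in WT and -1.54 ± 0.35 (adjusted p = 0.0172) in ERRKO, and Ccl7 by -1.57 ± 0.37 (adjusted p = 0.00807) and -2.04 ± 0.37 (adjusted p = 0.00654). Ccl12, a further Ccr2 ligand, fell in WT (-1.30 ± 0.36, adjusted p = 0.0184; not called by edgeR or DESeq2) and was -1.13 ± 0.36 (adjusted p = 0.0708) in ERRKO. In ERRKO, then, Ccl2 and Ccl7 fell while the test for their receptor Ccr2 did not pass.

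Cx3cl1, the ligand of Cx3cr1, was at 3.04, 2.80 and 2.79 in WT PBS, 1.50, 0.795 and 0.968 in WT CL, 0.612, 0.757 and 0.845 in ERRKO PBS and 0.706, 0.681 and 0.495 in ERRKO CL. WT PBS stood above all others. Cx3cl1 was lower in ERRKO under PBS (-1.45 ± 0.16, adjusted p = 3.04e-05) and under CL (-0.48 ± 0.16, adjusted p = 0.0348). Using RPKM as deposited, the latter did not pass (-0.03, adjusted p = 0.856). It fell with CL in WT (-1.11 ± 0.16, adjusted p = 0.000474) and did not pass in ERRKO (-0.14 ± 0.16, adjusted p = 0.670). The agonist effects differed by 0.97 ± 0.23 (adjusted p = 0.0403), which DESeq2 called and edgeR did not. Il34, the second ligand of Csf1r, was at 1.55, 3.82 and 5.29 in WT PBS, 2.02, 2.51 and 1.95 in WT CL, 6.74, 7.16 and 5.48 in ERRKO PBS and 3.77, 3.99 and 3.74 in ERRKO CL. It was higher in ERRKO under PBS (0.90 ± 0.28, adjusted p = 0.0277).

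**Figure D4:**
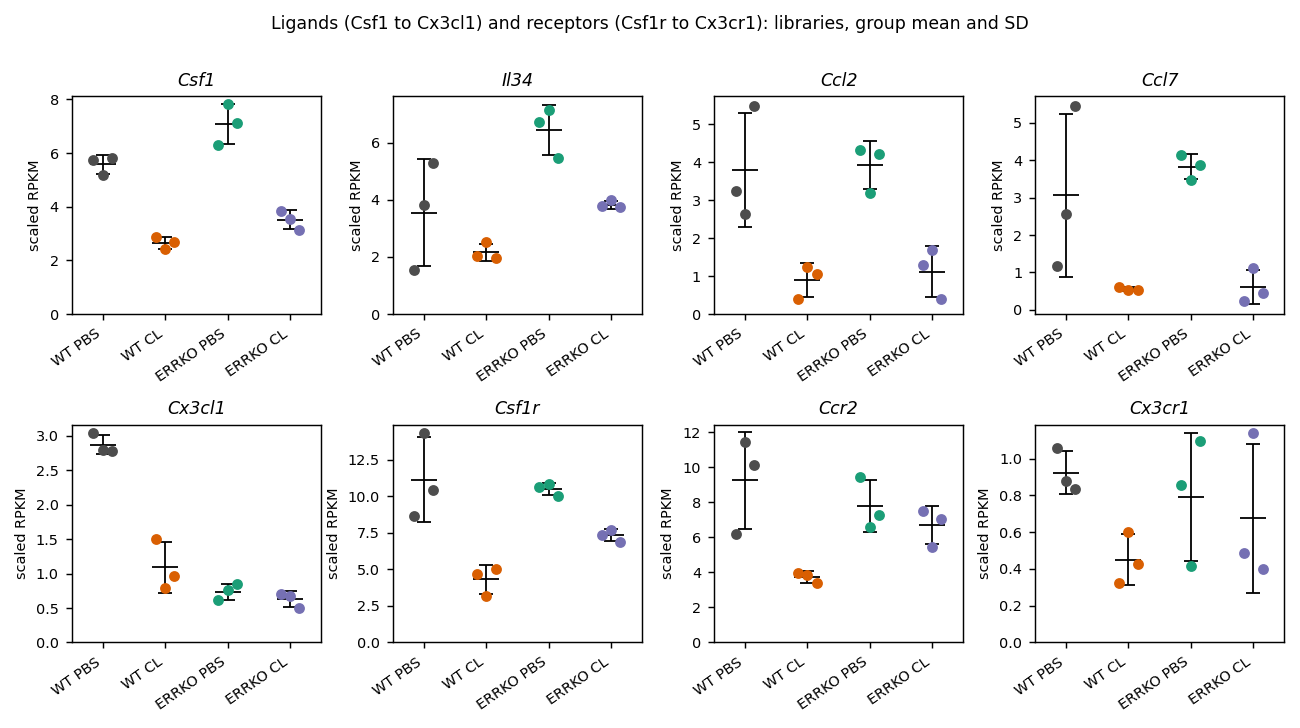
Scaled RPKM of 5 ligands (Csf1, Il34, Ccl2, Ccl7, Cx3cl1) and 3 receptors (Csf1r, Ccr2, Cx3cr1) in each library (points), with the group mean and SD (bars, n = 3). Csf1, Ccl2 and Ccl7 are lower under CL in both genotypes, Ccr2 is lowest in WT CL at 3.37 to 3.97, and Cx3cl1 is highest in WT PBS at 2.79 to 3.04.

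All 4 antigen presentation genes fell with CL in WT (median -0.85), 1 of 4 in ERRKO (median -0.49), and all 4 were higher in ERRKO than in WT under CL (median 0.58). Class II molecules show peptides to helper T cells, on macrophages, dendritic cells and B cells. Cd74, the invariant chain that guides class II molecules to the endosome, was the most abundant, at 137, 166 and 129 in WT PBS, 99.5, 61.9 and 75.9 in WT CL, 171, 185 and 140.1 in ERRKO PBS and 124, 107 and 120.2 in ERRKO CL. H2-Aa (minus strand of chromosome 17, 34282744 to 34287823), an alpha chain, was at 102, 127 and 104 in WT PBS, 73.7, 51.3 and 63.6 in WT CL, 132, 149.9 and 113 in ERRKO PBS and 99.7, 83.9 and 97.2 in ERRKO CL. H2-Ab1 (plus strand of chromosome 17, 34257689 to 34269419), its beta chain, was at 61.5, 66.4 and 59.8 in WT PBS, 41.7, 27.5 and 35.8 in WT CL, 74.6, 85.3 and 68.2 in ERRKO PBS and 57.7, 50.2 and 57.4 in ERRKO CL. H2-Eb1 (plus strand of chromosome 17, 34305867 to 34316674), the beta chain of the E molecule, was at 58.1, 71.3 and 62.8 in WT PBS, 41.5, 30.7 and 34.3 in WT CL, 78.7, 86.7 and 61.4 in ERRKO PBS and 56.3, 47.7 and 55.4 in ERRKO CL.

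For each of these 4 genes the order of groups was the same. WT CL was lowest in every library, ERRKO CL lay between 47.7 and 57.7 for the beta chains, and the 2 PBS groups were highest. Cd74 changed by -0.88 ± 0.17 (adjusted p = 0.00226) in WT, H2-Aa by -0.82 ± 0.15 (adjusted p = 0.00162), H2-Ab1 by -0.85 ± 0.14 (adjusted p = 0.000871) and H2-Eb1 by -0.85 ± 0.14 (adjusted p = 0.00116). In ERRKO the differences were -0.49, -0.49, -0.46 and -0.49 with adjusted p-values of 0.0866, 0.0579, 0.0563 and 0.04998, so that H2-Eb1 alone passed by limma, while edgeR called all but Cd74 and DESeq2 all 4. The H2-Eb1 call was lost without WT PBS replicates 1 or 2, WT CL replicate 3, ERRKO PBS replicates 1 or 2 or any ERRKO CL replicate (adjusted p from 0.0527 to 0.167).

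Under CL, ERRKO exceeded WT by 0.59 ± 0.17 (adjusted p = 0.0142) for Cd74, 0.58 ± 0.15 (adjusted p = 0.00747) for H2-Aa, 0.66 ± 0.14 (adjusted p = 0.00215) for H2-Ab1 and 0.58 ± 0.14 (adjusted p = 0.00649) for H2-Eb1. The Cd74 call was lost without WT CL replicate 2 (adjusted p = 0.0652). Under PBS 0 of 4 passed, also at an unadjusted p under 0.05, by edgeR and by DESeq2, with differences of 0.20 to 0.28. All 4 were higher in ERRKO under both treatments on the deposited scale, where 66.3% (PBS) and 70.5% (CL) of all genes were. On that scale all 4 fell in both genotypes (38.1% of all genes in WT and 13.7% in ERRKO). Of other cells that carry class II molecules, 6 dendritic cell genes summed to 6.51 to 9.34 in WT PBS, 5.39 to 8.05 in WT CL, 6.64 to 8.78 in ERRKO PBS and 5.57 to 6.89 in ERRKO CL. The B cell genes, 4 summed, were at 1.53 to 10.2, 1.50 to 1.99, 1.26 to 2.56 and 1.22 to 2.03 in the same order. Their part in the result was not tested.

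Promoters of class II genes are known for an X box, which the regulatory factor X complex binds, followed by a Y box with the letters CCAAT. The 250 bases before the RefSeq start are printed for an alpha and a beta chain, with 2 motifs in capitals on either strand. These are CCAAT, which reads ATTGG on the other strand, and CAACNGATG, letters of the X box. H2-Aa is at chr17:34287824-34288073 on the minus strand and H2-Eb1 at chr17:34305617-34305866 on the plus strand (GRCm38.p6), where it also holds an exon of the antisense gene Gm20513.
H2-Aa: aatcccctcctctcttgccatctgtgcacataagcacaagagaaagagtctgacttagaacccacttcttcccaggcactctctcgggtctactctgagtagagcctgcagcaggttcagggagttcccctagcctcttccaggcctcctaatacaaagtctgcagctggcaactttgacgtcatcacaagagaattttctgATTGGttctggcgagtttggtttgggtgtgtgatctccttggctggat
H2-Eb1: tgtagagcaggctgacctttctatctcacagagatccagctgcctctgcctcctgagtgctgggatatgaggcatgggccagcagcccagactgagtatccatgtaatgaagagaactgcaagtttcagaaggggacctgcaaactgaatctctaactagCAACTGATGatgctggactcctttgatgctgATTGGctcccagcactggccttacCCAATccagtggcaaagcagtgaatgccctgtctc

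In H2-Eb1 the X letters lay 82 to 90 bases before the start and ATTGG 55 to 59 bases before it, with CCAAT a further time at 31 to 35. In H2-Aa the search found ATTGG at 44 to 48 and no match to CAACNGATG. Over both strands, CAACNGATG occurred in 0.4% of 27025 promoters of this length, and in 1 of the 26 promoters found for the 37 genes. CCAAT occurred in 34.5% of all and in 12 of the 26, and GAGGAA, the core letters of sites for the myeloid factor PU.1, in 23.1% of all and in 13 of the 26. A match is a description of the letters and not of a factor bound there.

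Of 13 further antigen presentation genes tested, 6 were higher in ERRKO under PBS and 7 fell with CL in ERRKO, while in WT 5 fell, H2-DMa (-1.02), Cd86 (-0.82) and H2-DMb1 (-0.76) having the smallest p-values. H2-K1, a class I heavy chain, was higher in ERRKO under PBS (1.14 ± 0.18, adjusted p = 0.000388) and fell with CL in ERRKO (-1.16 ± 0.18, adjusted p = 0.00259). H2-D1, another heavy chain, was 0.97 ± 0.16 (adjusted p = 0.000551) and -0.89 ± 0.16 (adjusted p = 0.00587), and Tap2, which pumps peptides to class I molecules, 0.66 ± 0.09 (adjusted p = 0.000119) and -0.59 ± 0.09 (adjusted p = 0.00240). The agonist effects differed between genotypes for 0 of the 13 by limma or edgeR (4 at an unadjusted p under 0.05), while DESeq2 called 1, Tap2. Of the 13, 11 were higher in ERRKO under PBS on the deposited scale, 9 fell with CL in ERRKO and 10 in WT.

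Of 31 further leukocyte and myeloid genes tested, 25 fell with CL in WT (median -0.84) and 11 in ERRKO (median -0.63), and none of the 31 differed in agonist effect between genotypes by limma, edgeR or DESeq2 or at an unadjusted p under 0.05. The deposited scale gave 27 falls in WT and 25 in ERRKO. Cd52, a surface glycoprotein of leukocytes, changed by -1.26 ± 0.15 (adjusted p = 0.000137) in WT and -1.11 ± 0.15 (adjusted p = 0.00130) in ERRKO. Coro1a, an actin-binding protein of leukocytes, changed by -1.04 ± 0.13 (adjusted p = 0.000152) and -0.97 ± 0.13 (adjusted p = 0.00107).

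The ratio of a gene to Adgre1 within a library is free of the scaling between libraries and sets each gene against a macrophage marker. Adgre1 itself differed by -1.18 with CL in WT, by -0.48 in ERRKO and by 0.51 between genotypes under CL. The ratio of an unmoved gene thus tends to rise with CL and to be lower in ERRKO under CL. The shares of all genes below follow from this and are no measure of chance for the 35 genes. With CL in WT, 4 of 35 ratios (Mpeg1, Ms4a7, Clec10a and Ly6c2) lay wholly above those of WT PBS, where 78.6% of all genes did, and 0 of 35 wholly below, where 0.302% did. With CL in ERRKO, 1 of 35 (Siglec1) lay wholly above, where 70.4% of all genes did, and 11 wholly below, where 1.88% did, namely the 3 C1q chains, Cd68, Ptprc, Laptm5, Ctss, Fcgr1, Fcer1g, Tyrobp and Ly6c2.

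Between genotypes under PBS, the ratios of Siglec1, Retnla and Ly6c2 lay wholly above in ERRKO (3 of 35, 10.9% of all genes) and those of Ms4a7, Ctss, Lyz2 and Trem2 wholly below (4 of 35, 5.59% of all). Under CL, Csf1r, Siglec1 and Clec10a lay above (3 of 35, 4.51% of all) and 17 of 35 below, a smaller share than the 59.8% of all genes. The ratio of Siglec1 to Adgre1 was 0.143, 0.0903 and 0.180 in WT PBS, 0.0773, 0.144 and 0.117 in WT CL, 0.337, 0.348 and 0.356 in ERRKO PBS and 0.361, 0.708 and 0.663 in ERRKO CL. Every ERRKO ratio exceeded every WT ratio. The ratio of Ms4a7 to Adgre1 was 0.434, 0.526 and 0.402 in WT PBS, 1.23, 0.850 and 1.01 in WT CL, 0.382, 0.341 and 0.289 in ERRKO PBS and 0.442, 0.278 and 0.316 in ERRKO CL, and WT CL stood above all other libraries. These ratios share the Adgre1 value of each library, and no test was made of them.

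**Figure D5:**
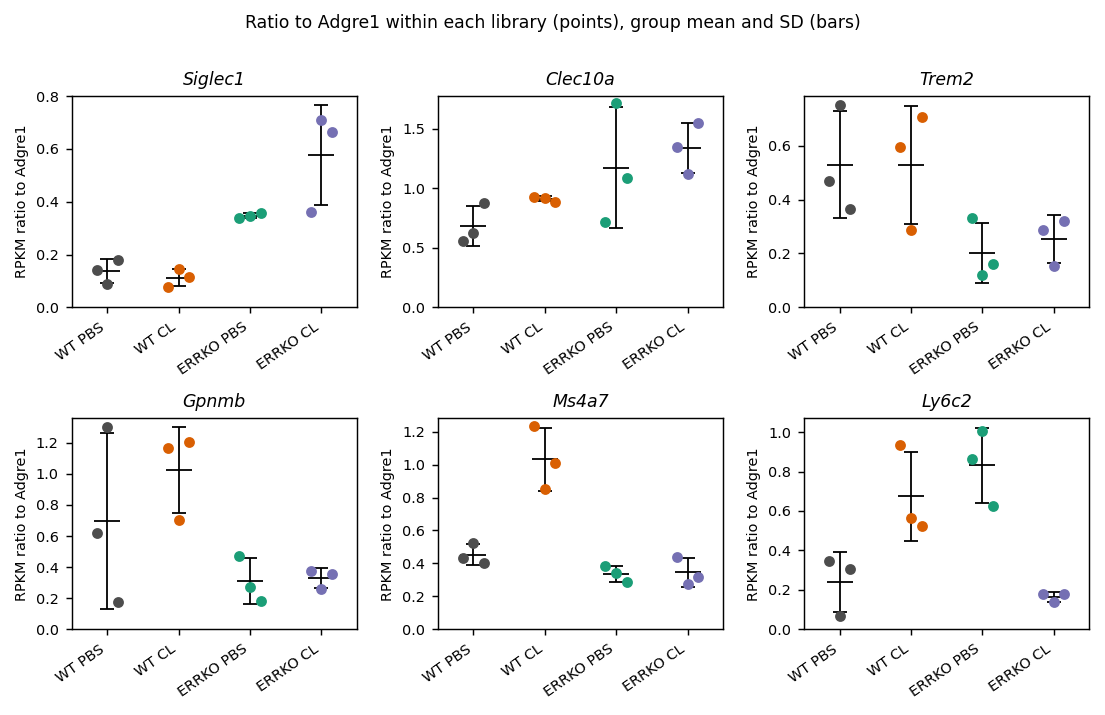
RPKM of 6 genes divided by that of Adgre1 in the same library (points), with the group mean and SD (bars, n = 3). Siglec1 is at least 0.337 in all ERRKO libraries and at most 0.180 in WT, Ms4a7 is at least 0.850 in WT CL and at most 0.526 elsewhere, and Ly6c2 is lowest in ERRKO CL except for 1 WT PBS library at 0.0660.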

How the data were processed

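Brown adipose tissue RNA was sequenced in 12 libraries, 3 in each of 4 groups, as grouped by the labels. The authors deposited RPKM values for 24452 genes, and a second table of linear signal for 12380 genes whose values are whole reads scaled per library. The submitters' processing notes name bcl2fastq 2.16.0.10, cutadapt, STAR 2.3.0, edgeR and the builds mm9 and mm10, with no role given, and the total behind RPKM is not given in the sources used here. Gene coordinates are from GENCODE on GRCm38 and promoters from RefSeq.

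RPKM was rescaled by median-of-ratios factors, genes with a mean deposited RPKM under 0.5 were left out, and log2 values after adding 0.5 were fitted with limma 3.58.1 (R 4.3.3) over all 12 libraries as 4 group means, with a trended prior, 8 residual degrees of freedom and Benjamini-Hochberg adjustment within each of 5 comparisons. As alternatives, edgeR 4.0.16 and DESeq2 1.42.0 were run on reads recovered from the second table (100.0% of values whole within 0.01). The 26 alternative settings also took other scalings, pseudocounts, filters and fits and left out libraries. The second table held 9 stray cells outside the sample columns, which were not used. The fit was tested on simulated data with changes set in WT CL. It recovered 23.9% of 1.5-fold, 61.2% of 2-fold and 93.9% of 4-fold changes, and 7 of 126 calls were false. A difference that did not pass is thus not shown to be absent.

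The genes and lists were chosen with earlier results of these data known. All 37 genes are reported, and further lists name up to 3 genes with the smallest p in the comparison described, leaving out a gene not reported here, with Ccl12, Il34, Mgl2, Ly6c1 and repeats of named genes in other comparisons added after their values were seen. The labels do not say that replicate numbers pair the samples, and the main fit assumed no pairing. Deviations of same-numbered libraries correlated at -0.389 to 0.454, with 7 of 18 pairs over 0.1. Those of other-numbered libraries correlated at -0.466 to 0.446. What the numbers stand for was not tested further.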

Additional observations from a re-analysis of the deposited data

Results flagged for a closer look

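The agonist effect on Ly6c2 differed between genotypes by -2.61 (log2, SE 0.42, adjusted p = 0.00668 by limma). CL lowered Ly6c2 in ERRKO, where all 3 CL libraries lay below all 3 PBS libraries, while in WT the groups overlapped and the test did not pass (0.35, adjusted p = 0.409 by limma). In the 25 alternative settings that gave a value, the test kept its direction and passed. The highest T cell sums were in ERRKO PBS too, and their part in the result was not tested.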

How the results depend on the processing

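No called difference among the 36 genes reversed under the alternatives run. Outside them, Ly6c1 reversed between genotypes on the deposited scale under both treatments. Under PBS the called differences of Lyn (-0.35 to 0.21) and Tie1 (-0.50 to 0.08) also changed sign on that scale, where neither passed. Counts of genes called moved most for CL in ERRKO (11 of 36). DESeq2 gave 21, which includes Timd4 from outside the 36. Other counts were 23 on the deposited scale, 19 with only the groups compared, 7 without the low-value filter, and 2 without both ERRKO replicate 3 libraries. ERRKO against WT under PBS (4) gave 19 on the deposited scale, 8 with quantile normalization and 2 without both replicate 3 libraries, and under CL (12) 24 on the deposited scale. The interaction (1) gave 4 by DESeq2, 2 by edgeR and 2 from the second table, and was not run with only the groups compared. Leaving out 1 library gave 2 to 9 for genotype under PBS, 9 to 13 under CL, 20 to 28 for CL in WT, 4 to 14 in ERRKO and 1 to 3 for the interaction. With the replicate number as a block, the counts were 3, 11, 25, 7 and 1 in that order, against 4, 12, 27, 11 and 1. The labels do not say that these numbers pair the samples. The cause of these shifts was not tested. Levels of 9 to 129 reads limit Ly6c2, Lyve1 and Fcgr1. Low reads also limit other genes, among them Msr1 (16 to 104), Cx3cr1 (15 to 93) and Trem2 (11 to 145). Siglec1 had 21, 31 and 34 reads in WT CL.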

Other observations

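A list of 16 further lysosomal and lipid-handling genes moved in both directions. With CL in WT 4 rose and 5 fell (2 and 7 on the deposited scale). In ERRKO 0 passed by limma or edgeR (2 higher and 1 lower at an unadjusted p under 0.05), while DESeq2 called Ctsd and Lgmn, 1 in each direction, and 1 fell on the deposited scale. Apoe, the apolipoprotein that macrophages and adipocytes make, fell in WT (-1.88 ± 0.17, adjusted p = 1.77e-05), and under CL was higher in ERRKO (2.08 ± 0.17, adjusted p = 1.32e-06). Its agonist effects differed between genotypes (1.74 ± 0.24, adjusted p = 0.00279). Lipa, the lysosomal acid lipase, rose with CL in WT (0.84 ± 0.15, adjusted p = 0.00170) and was lower in ERRKO under CL (-1.26 ± 0.15, adjusted p = 3.72e-05). Adipocytes express several of these genes, and their part was not tested.

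S100a8, a calcium-binding protein abundant in neutrophils, was the 1 of 3 neutrophil genes tested that rose with CL in ERRKO (1.96 ± 0.33, adjusted p = 0.00405), and its agonist effects differed between genotypes (2.80 ± 0.46, adjusted p = 0.00713). Its partner S100a9 was lower in ERRKO under PBS (-1.72 ± 0.50, adjusted p = 0.0182). The mast cell proteases Tpsb2, Mcpt4 and Cma1 were higher in ERRKO under PBS (1.203, 1.10 and 1.23), of which edgeR did not call Cma1, while Kit, the stem cell factor receptor, was lower (-1.19). Both NK cell genes tested, Ncr1 (0.58) and Nkg7 (1.03), were higher in ERRKO under PBS, of which edgeR and DESeq2 called Nkg7.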
